A study of Mus musculus with 2 samples.

Results

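The gene set described here is the Notch signalling core in mouse kidney, and its 10 members are the rows of the deposited count table named Notch1, Notch2, Notch3, Notch4, Jag1, Jag2, Dll1, Dll4, Hes1 and Hey1, out of 45777 genes in all. The rule takes them by name, and it was written with earlier results of these data known. They fall into 4 receptors, 4 ligands and 2 target genes. The data are 2 bulk RNA-seq libraries from whole kidneys, 1 labelled Control and 1 labelled CKO, for conditional knockout of Inmt in the proximal tubule, and the comparison asks how kidney expression differs when that gene is deleted there. Mice in both groups ate standard chow and received no treatment. The labels give no strain, age or sex, no Cre driver, no genotype of the control mice beyond that word, and no number of animals per library.

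Notch receptors are membrane proteins that are activated by ligands on a neighbouring cell. Ligand binding leads to cleavage by an ADAM metalloproteinase and then by gamma-secretase, and the freed intracellular domain enters the nucleus, binds RBPJ with a Mastermind coactivator and switches on Hes and Hey genes, which encode transcriptional repressors. In kidney the pathway patterns the proximal nephron during development, balances principal and intercalated cell fates in the collecting duct, and acts in endothelium and vascular smooth muscle. Jag1 and Hes1 are also known from work on injured tubules and fibrosis.

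The members sit at separate loci on GRCm38. Notch1 lies at chromosome 2, 26457902 to 26503822, Notch2 at chromosome 3, 98013538 to 98150367 and Notch4 at chromosome 17, 34564286 to 34588543. Of the ligands, Jag2 lies at chromosome 12, 112907803 to 112929812, Dll1 at chromosome 17, 15367354 to 15376932 and Dll4 at chromosome 2, 119325784 to 119335666. Hey1 lies at chromosome 3, 8663359 to 8667038, and the places of Notch3, Jag1 and Hes1 are given with their values.

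Counted reads numbered 33618076 in the control against 38136616 in the CKO library. Levels are reads per 1000000 (CPM) on library sizes scaled by TMM, a trimmed mean over genes, and the 15129 genes that reached 1 CPM in at least 1 library were called expressed. Inmt, the targeted gene, had 587 CPM in the control and 124 CPM in the CKO library and was 4.73-fold lower there (95% counting interval 4.59 to 4.88). As each group is a single library, differences have no replicate check, test or p-value. All intervals here are exact 95% intervals that cover counting error only. A whole-kidney library also cannot tell fewer cells of a type from less RNA per cell.

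Promoter stretches are shown for a pair of members, Jag1 and Notch3, because they were the ligand and the receptor with the highest ratio of CKO over control. Each is the 250 bases before the start site, 5′ to 3′ on the minus strand, from RefSeq on GRCm38.p6, at chr2:137116521-137116770 for Jag1 and chr17:32166891-32167140 for Notch3. Capitals mark matches on either strand to CACNAG, the N box that Hes proteins are known to bind.
Jag1: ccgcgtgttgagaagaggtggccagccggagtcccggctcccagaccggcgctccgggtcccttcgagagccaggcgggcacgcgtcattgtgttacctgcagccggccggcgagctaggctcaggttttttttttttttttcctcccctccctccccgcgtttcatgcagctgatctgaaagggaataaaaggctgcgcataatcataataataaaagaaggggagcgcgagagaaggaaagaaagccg
Notch3: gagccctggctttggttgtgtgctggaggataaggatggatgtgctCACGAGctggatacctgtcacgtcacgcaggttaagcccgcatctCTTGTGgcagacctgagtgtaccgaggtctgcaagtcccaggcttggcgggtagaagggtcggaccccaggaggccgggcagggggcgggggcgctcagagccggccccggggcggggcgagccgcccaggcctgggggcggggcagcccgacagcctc
The Notch3 stretch held 2 such matches and the Jag1 stretch none.

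Of the 10 members, 8 had a window of 300 bases around a start site in the RefSeq promoter table, and Hes1 and Hey1 did not. Those 8 genes had 9 windows, since Dll1 had 2. An N box was found in the windows of 5 members, Notch1, Notch2, Notch3, Dll1 and Dll4, against 42.5% of all 32851 windows. No window of a member held TGGGAA, the core letters bound by RBPJ, on either strand, and 25.6% of all windows held it. The longer form GTGGGAA, which contains that core, was in 6.38% of all windows and in none of the members' windows. CACGTG, the E box, was in 7.15% of all windows and in none of theirs. These matches describe letters in short windows and say nothing about binding.

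Notch gene reads were present in both libraries for every member, and Jag1 and Hes1 stood highest in the CKO library relative to the control. On the log2 scale of CPM + 0.5, Jag1 was at 1.03, Hes1 at 0.86 and Notch3 at 0.63, and Hey1 was lowest at -0.43. Of the 10 members, only Jag1 was at least 2-fold higher, where 10.3% of all expressed genes were, and none was at least 2-fold lower, where 1.66% were. With the deposited FPKM + 0.5 it was Hes1 in place of Jag1, although the plain FPKM ratio of Jag1 was 2.16. At a 1.5-fold limit, 3 members (Jag1, Hes1 and Notch3) were higher, against 19.3% of expressed genes, and none was lower, against 6.85%. Without the added 0.5 CPM, Hey1 was 1.51-fold lower, with a counting interval (0.99 to 2.30) that held 1. The median of the 10 log2 ratios was 0.19, beside 0.01 for all expressed genes. The counting interval of the ratio lay above 1 for 6 members, against 36.8% of expressed genes, and below 1 for none, against 34.7%.

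**Figure D1:**
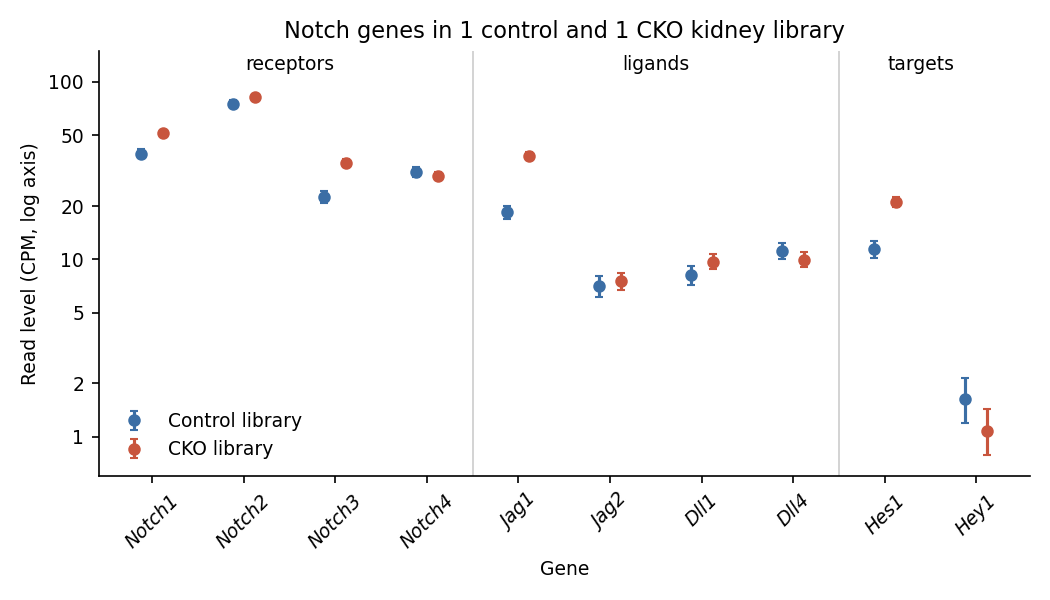
Levels of the 10 Notch genes in CPM (log axis) in the control library (blue) and the CKO library (red), with exact 95% counting intervals as bars. Jag1 goes from 18.5 to 38.4 CPM and Hes1 from 11.4 to 21.2, while the intervals of Notch4, Jag2, Dll1, Dll4 and Hey1 overlap between the libraries.

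Notch1, the receptor known from endothelium, lymphocytes and tubule precursors, had 1188 control reads and 2197 CKO reads, and its level was 39.5 CPM (37.2 to 41.8) against 51.6 CPM (49.5 to 53.8), a ratio of 1.31 (1.22 to 1.40). The intervals of the levels did not overlap, and the CKO library was the higher one.

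Notch2, the receptor needed for proximal nephron formation, was the most abundant of the 4 per length, by TPM. It had 75.6 CPM (72.5 to 78.8) on 2276 reads in the control and 82.8 CPM (80.1 to 85.5) on 3524 reads in the CKO library. The ratio of 1.09 (1.04 to 1.15) was the smallest of those whose interval stayed above 1.

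Notch3, the receptor of vascular smooth muscle and pericytes, had the highest ratio among receptors. Its level was 22.6 CPM (20.9 to 24.3) on 679 control reads and 35.1 CPM (33.3 to 36.9) on 1493 CKO reads, a ratio of 1.55 (1.42 to 1.71). The gene, at chromosome 17, 32120820 to 32166896 (GRCm38), overlaps the long noncoding gene model Gm38585, which had 157 and 401 reads, so reads in the overlap may be divided between them. Markers of smooth muscle and pericytes were higher in the same library, with 8 of 8 above 0 on the log2 scale. Of the 8, 2 were at least 2-fold higher, against 10.3% of all expressed genes. Their summed level was 226 CPM in the control against 355 CPM in the CKO library. Pdgfrb, a pericyte receptor and the marker with the most reads, went from 68.7 to 92.4 CPM. No marker of this list was at 0 in either library, and its part in the Notch3 difference was not tested.

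Notch4, the endothelial receptor, had 31.0 CPM (29.0 to 33.0) on 932 reads in the control and 29.6 CPM (28.0 to 31.3) on 1260 reads in the CKO library. The levels overlapped, and the ratio of 0.96 (0.88 to 1.04) turned to 1.19 when total reads set the scale. General endothelial markers had a median log2 ratio of -0.03 (0.28 with total reads), with 3 of 8 above 0, none past 2-fold in either direction, none at 0 reads and summed levels of 567 and 542 CPM. Plvap, an endothelial membrane protein with the most reads of these, had 120 and 127 CPM.

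The receptors differed among themselves in a way that no scaling between libraries can alter. Comparing the read counts of 2 genes across both libraries, the CKO-over-control ratio of Notch3 was 1.19 times that of Notch1 (1.06 to 1.34), that of Notch1 1.19 times that of Notch2 (1.09 to 1.31) and that of Notch2 1.15 times that of Notch4 (1.04 to 1.27). Each neighbour in this order was thus apart beyond counting error. From the first to the last, Notch3 against Notch4, the factor was 1.63 (1.43 to 1.85).

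Jag1, a ligand known from vessels, nephron and injured tubule, had the highest ratio of the 10 members by reads. By the deposited TPM its ratio of 2.33 was below the 2.52 of Hes1, and by FPKM its 2.16 was below 2.34. It had 557 control reads and 1634 CKO reads, or 18.5 CPM (17.0 to 20.1) against 38.4 CPM (36.5 to 40.3). The ratio was 2.07 (1.88 to 2.29), so the counting interval reached below 2. Among expressed genes, 90.2% had a lower log2 ratio. The gene lies at chromosome 2, 137081451 to 137116520 (GRCm38), with no other annotated gene across it.

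The deposited FPKM values, which correct for length, gave Jag1 a ratio of 2.16, lower than the 2.59 from its reads over total reads. Reads per FPKM unit for Jag1 were 1.19 times as many in the CKO library as in the control, relative to the median gene, whereas 78.8% of 11834 genes with 100 or more reads in both libraries kept that relation within 2%. The other 9 members lay between 0.978 and 1.005. The table lists 2 transcript models for Jag1, and the cause was not tested.

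Jag2, a ligand that acts with Jag1 in epithelia and immune tissue, had 7.04 CPM (6.12 to 8.06) on 212 reads in the control and 7.56 CPM (6.76 to 8.43) on 322 reads in the CKO library. The levels overlapped, with a ratio of 1.07 (0.90 to 1.28).

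Dll1, a Delta-type ligand of nephron patterning, had 8.14 CPM (7.15 to 9.22) on 245 control reads and 9.72 CPM (8.81 to 10.7) on 414 CKO reads. Its ratio of 1.19 (1.02 to 1.41) stayed above 1 by counting error, although the intervals of the levels overlapped.

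Dll4, the ligand of arterial and sprouting endothelium, had 11.2 CPM (10.03 to 12.5) on 337 reads in the control and 9.98 CPM (9.05 to 11.0) on 425 reads in the CKO library. The levels overlapped, and the ratio of 0.89 (0.77 to 1.03) became 1.11 with total reads. It overlaps the long noncoding gene model Gm14207, with 0 and 21 reads. Arterial markers had a median log2 ratio of 0.24, with 5 of 6 above 0. Of the 6, 1 was at least 2-fold higher, against 10.3% of all expressed genes, and none was at 0 reads. Their summed levels were 53.9 and 73.8 CPM. Efnb2, an arterial ephrin ligand with the most reads of them, was also listed among the Notch targets.

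Among ligands, the ratio of Jag1 was 1.74 times that of Dll1, the next in order (1.44 to 2.10). Dll1 and Jag2 could not be told apart (factor 1.11, 0.87 to 1.42), nor could Jag2 and Dll4 (1.20, 0.96 to 1.52). Jag1 against Dll4 gave 2.33 (1.95 to 2.77).

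Hes1, the repressor gene most widely used as a readout of Notch signalling, had 344 control reads and 901 CKO reads, and its level was 11.4 CPM (10.2 to 12.7) against 21.2 CPM (19.8 to 22.6), a ratio of 1.85 (1.63 to 2.10). The intervals of the levels did not overlap. No annotated gene overlaps it, at chromosome 16, 30065357 to 30067796 (GRCm38). Hes1 is also induced by signals other than Notch. The 9 immediate early genes listed (among them Jun, Fos and Egr1), which respond to handling as well as to signalling, were all above 0 in the CKO library. Of these, 7 were at least 2-fold higher, against 10.3% of all expressed genes. The summed level of the 9 was 82.4 CPM in the control and 257 CPM in the CKO library, with most reads on Jun and none at 0 reads. Their part in the Hes1 difference was not tested.

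Hey1, a repressor gene of endothelium and other Notch-active cells, was near the limit of detection set here. It had 49 control reads and 46 CKO reads, or 1.63 CPM (1.20 to 2.15) against 1.08 CPM (0.79 to 1.44). The levels overlapped, and the interval of the ratio of 0.66 (0.43 to 1.01) held 1. The 2 targets nevertheless differed from each other beyond counting error, the ratio of Hes1 being 2.79 times that of Hey1 (1.79 to 4.35).

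Of the 10 genes in order of their ratio, neighbours were apart beyond counting error at 2 of 9 steps, from Hes1 to Notch3 with a factor of 1.19 (1.02 to 1.39) and from Notch3 to Notch1 with 1.19 (1.06 to 1.34). Jag1 and Hes1 at the top were not apart (1.12, 0.95 to 1.31), nor were any neighbours from Notch1 downward.

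The choice of scaling or unit moved these ratios, and Jag1 did not move with the other members when the unit was FPKM or TPM. The median log2 ratio of all expressed genes was 0.01 with TMM, -0.01 with DESeq2 size factors, 0.32 with total reads, 0.26 with the deposited FPKM and 0.40 with the deposited TPM. Across these 5 scalings, 8 of 10 members kept their sign, and Notch4 and Dll4 did not. Jag1 ranged from 0.98 with FPKM to 1.34 with total reads, Hes1 from 0.84 to 1.30 and Notch3 from 0.61 to 0.98. After subtraction of the median of all genes, every member kept its sign under each scaling that gave a value, with Hes1 between 0.85 and 0.90, Notch3 between 0.55 and 0.62, Jag1 between 0.72 and 1.03, and Dll4 between -0.17 and -0.11. Hey1, below 1 FPKM in both libraries, had no value with FPKM. With total reads 2 members, Jag1 and Hes1, were at least 2-fold higher, against 15.7% of genes, and with TPM 2 were, the same pair, against 17.0%. With FPKM the 1 member past 2-fold was Hes1 at 1.17 and not Jag1 at 0.98, against 10.8% of genes. These log2 ratios add 0.5 to the value in its own unit, which lowers a ratio more where the value is small. Without the added 0.5, the FPKM ratio of Jag1 was 2.16 and the TPM ratio of Notch3 was 2.08, both past 2-fold. Hes1 was thus above Jag1 with FPKM and TPM, and Jag1 above Hes1 with the 3 scalings of reads.

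Levels of different genes were compared in TPM, the deposited length-corrected unit, with counting intervals carried over from the reads. In the control, Hes1 at 13.4 TPM (12.1 to 14.9) and Notch2 at 12.1 TPM (11.6 to 12.6) led and overlapped. Notch4 (7.87 TPM) and Notch1 (6.99) followed and overlapped each other, and then came Dll4 (5.48), Jag1 (5.42) and Notch3 (4.71), each overlapping its neighbour. Dll1 at 3.70, Jag2 at 2.36 and Hey1 at 1.22 TPM were each apart from the gene above.

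In the CKO library Hes1 stood alone at 33.9 TPM (31.7 to 36.2), ahead of Notch2 at 17.8 TPM (17.2 to 18.4). Jag1 came next at 12.6 TPM and overlapped Notch1 at 12.3. Notch4 at 10.1 and Notch3 at 9.80 TPM overlapped, as did Dll4 at 6.70 and Dll1 at 5.98. Jag2 at 3.44 and Hey1 at 1.08 TPM remained the lowest. Compared with all expressed genes these are middling to low levels, since 65.9% of genes had a lower mean TPM than Hes1, 53.6% than Notch2, 40.8% than Jag1 and 8.5% than Hey1.

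Shares within each role, which do not depend on the scaling, shifted most among the ligands. Jag1 made up 31.9% of the summed ligand TPM in the control against 43.9% in the CKO library, while Dll4 went from 32.3% to 23.3%. Jag2 had 13.9% and 12.0%, and Dll1 21.8% and 20.8%. By plain read counts, which favour long transcripts and do not carry the length difference of Jag1, the Jag1 share was 41.2% and 58.5%.

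Among receptors, Notch2 kept the largest share at 38.2% and 35.6%. Notch3 went from 14.9% to 19.7% and Notch4 from 24.9% to 20.2%, so that by TPM Notch3 had the smallest share in both libraries and lay nearer to Notch4 in the CKO library. Notch1 had 22.1% and 24.6%. Of the summed target TPM, Hes1 took 91.7% in the control against 96.9% in the CKO library.

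**Figure D2:**
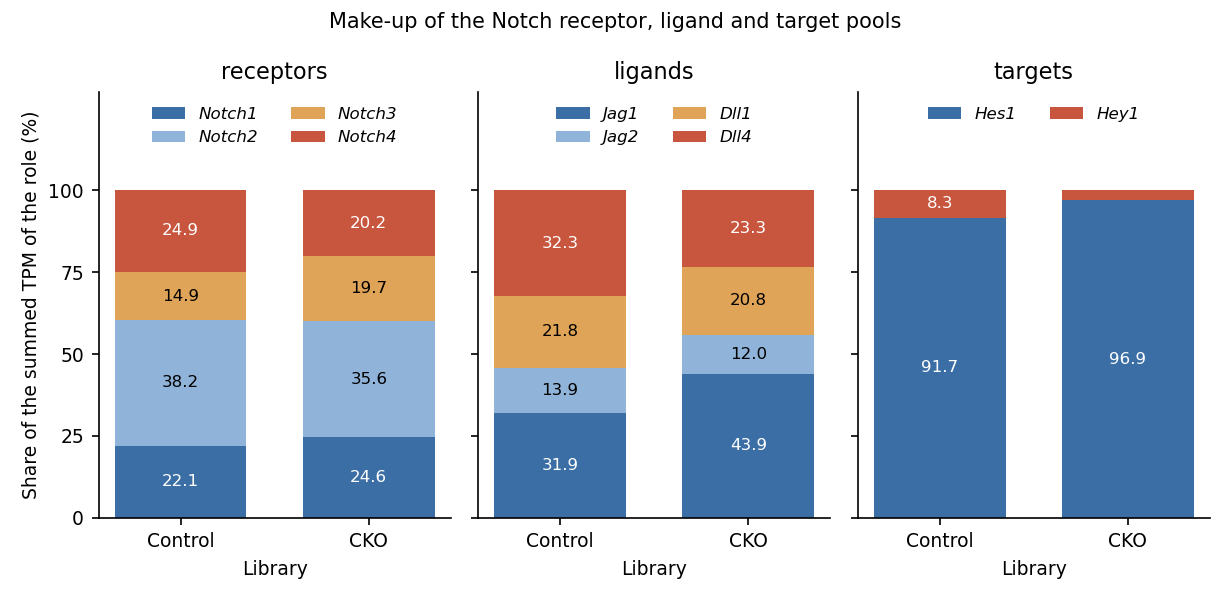
Share of each gene in the summed TPM of the 4 receptors, 4 ligands and 2 targets, in percent, for the control and CKO libraries. The Jag1 segment grows from 31.9% to 43.9% and the Dll4 segment shrinks from 32.3% to 23.3%, and the unlabelled Hey1 segment in the CKO library is 3.1%.

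The wider pathway was listed by role in 60 further genes, of which 50 were expressed. Of these, 5 were at least 2-fold higher in the CKO library (Lfng, Neurl1a, Numbl, Myc and Sox9) and none was at least 2-fold lower, against 10.3% and 1.66% of all expressed genes. Their median log2 ratio was 0.04.

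Sugar-modifying enzymes tune which ligand a receptor answers to. Of 6 such genes, 1 was at least 2-fold higher, and the median was 0.14. Lfng, the Fringe enzyme that favours Delta-type ligands, had 115 control reads and 467 CKO reads, a ratio of 2.87 (2.34 to 3.55). Eogt, which adds N-acetylglucosamine to EGF repeats, was the lowest at -0.44.

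Ligands need ubiquitination to pull on the receptor. Of 4 genes for this step, 1 was at least 2-fold higher. Neurl1a, a Neuralized ubiquitin ligase, had 22 and 120 reads, a ratio of 3.86 (2.43 to 6.38), and Mib2, a Mindbomb ligase, was lowest at -0.25, which turned positive with total reads. With FPKM, Neurl1a was under the minimum level and had no value.

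Receptor-cleaving proteases had no gene past 2-fold among 10, and their median of -0.19 became 0.12 with total reads but lay below that of all genes under each of the 5 scalings. Ncstn, the gamma-secretase subunit nicastrin, was the highest at 0.24.

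In the nuclear complex, none of 8 genes passed 2-fold. The median was -0.07, or 0.24 with total reads, and lay below that of all genes under each of the 5 scalings. Rbpj, the DNA-binding partner of the cleaved receptor, was the highest at 0.65, on 574 control and 1282 CKO reads, a ratio of 1.58 (1.43 to 1.75). Kat2b, a histone acetyltransferase, was the lowest at -0.49. None of 7 corepressor genes passed 2-fold, with a median of 0.04. Tle1 was at 0.59 and Cir1, an RBPJ-binding corepressor, at -0.23. Cir1 turned positive with total reads but lay below the median of all genes under each of the 5 scalings.

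Among 7 genes for inhibition and turnover, 1 was at least 2-fold higher, and their median was 0.00. Numbl, a Numb-like adaptor, had 46 and 190 reads, a ratio of 2.92 (2.11 to 4.12). Numb, the endocytic inhibitor of Notch, was lowest at -0.26 and turned to 0.05 with total reads.

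Among other Hes and Hey family genes, 3 of 8 were expressed and none passed 2-fold. Heyl, a repressor known from vascular smooth muscle, was the highest at 0.51 with 8.0 CPM in the control and 11.6 CPM in the CKO library, and Hes6 was lowest at -0.11, again positive with total reads. Hes3, Hes5 and Helt had 0 reads in both libraries, as did the ligand genes Dll3 and Dner. None of the 4 other ligand-like genes was expressed.

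Other known targets had 5 of 6 genes expressed, all above 0, and 2 of them were at least 2-fold higher. Their median was 0.59. Myc, a growth regulator, had 166 and 662 reads, a ratio of 2.82 (2.38 to 3.36). Sox9, a transcription factor of tubule repair, had 10 and 354 reads, a ratio of 25 (13.5 to 52.7). It was also listed among the injured tubule markers. Efnb2 was lowest at 0.33, and Nrarp, a feedback inhibitor induced by Notch, was at 0.59 (naming it was decided after its value was seen). All of these genes answer to other signals as well.

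**Figure D3:**
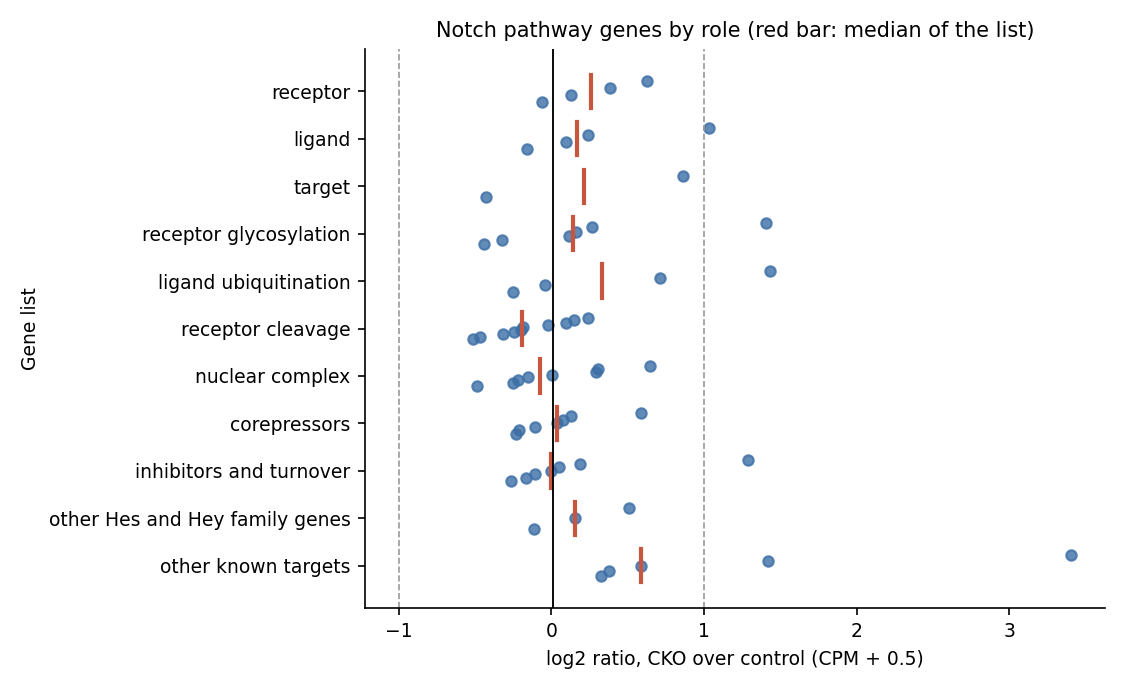
Log2 ratio of CKO over control (CPM + 0.5) for each expressed Notch pathway gene (points) by role, with the list median as a red bar, the median of all expressed genes as a black line and dashed lines at 2-fold. Most points lie within the dashed lines, and receptor cleavage genes centre at -0.19.

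By closeness of level in both libraries among 69 other genes of these lists, measured as distance on the log2 scale over only 2 libraries, the nearest to Jag1 were Notch3 (0.31) and Rbpj (0.35). Those nearest to Notch3 were Efnb2 (0.21) and Jag1 (0.31), and those nearest to Hes1 were Neurl1b (0.14) and Tle1 (0.38).

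Marker lists of other cell types and states known to carry Notch genes are set against the 10.3% of all expressed genes that were at least 2-fold higher. Injured tubule markers were higher, with 8 of 9 at least 2-fold, summed levels of 494 and 4906 CPM, and most reads on Spp1. So were macrophage markers (7 of 8 at least 2-fold, 70.2 and 310 CPM, most reads on Csf1r) and fibroblast markers (6 of 7, 188 and 666 CPM, most reads on Col3a1). Of the lymphocyte markers 4 of 8 were expressed, with 3 at least 2-fold higher, 2.39 and 7.21 CPM in sum, and most reads on Lck. Markers of collecting duct and thick ascending limb cells were mostly above 0 on the log2 scale. That held for 7 of 7 principal, 7 of 7 intercalated and 5 of 6 thick ascending limb markers. Their medians were 0.54, 0.28 and 0.55, beside 0.01 for all expressed genes. Principal cell markers had 1 of 7 at least 2-fold higher (308 and 446 CPM), led in reads by Hsd11b2. Intercalated cell markers had 2 of 7 (212 and 276 CPM), led by Slc26a4, and thick ascending limb markers 0 of 6 (2140.2 and 3098 CPM), led by Umod.

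Podocyte markers, with most reads on Podxl, summed to 409 and 413 CPM and had none past 2-fold. Distal convoluted tubule markers, with most reads on Slc12a3, summed to 387 and 393 CPM, also with none. That near-equal sum covers markers that went both ways, with 2 of 4 above 0 on the log2 scale and 2 below. Their median was -0.16, or 0.15 with total reads. Proximal tubule markers, which mark the labelled tissue, were abundant in both libraries. In the CKO library they were mostly lower, with 8 of 9 below 0 on the log2 scale. At least 2-fold lower were 3 of 9, against 1.66% of all expressed genes. Their summed levels were 17666 and 10527 CPM, with most reads on Slc34a1. With total reads none of the 9 was past 2-fold. Urothelial markers, for tissue of the renal pelvis, were not expressed, with Upk1b, Upk2 and Upk3a at 0 reads in both libraries and Upk1a, with the most reads, at 0.83 and 0.82 CPM. The part of any of these cell types in the Jag1, Hes1 and Notch1 differences was not tested.

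**Figure D4:**
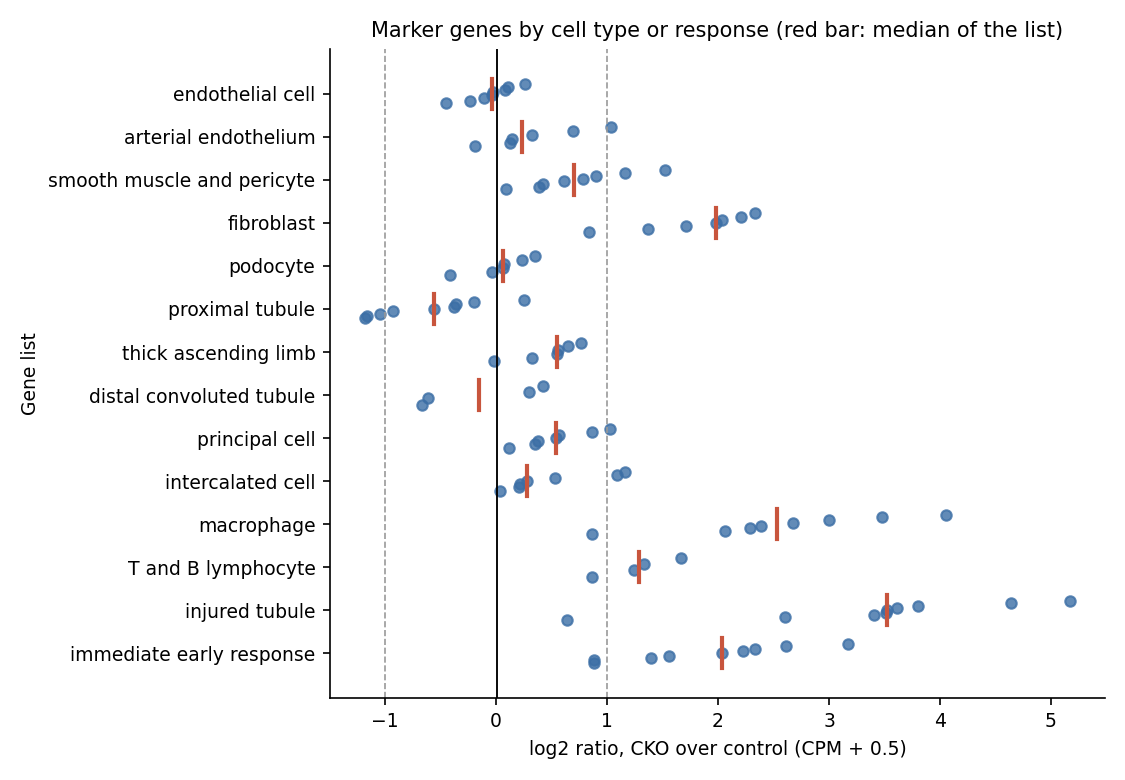
Log2 ratio of CKO over control (CPM + 0.5) for each expressed marker gene (points) by cell type or response, with the list median as a red bar, the median of all expressed genes as a black line and dashed lines at 2-fold. Endothelial markers centre near 0, smooth muscle and pericyte markers at 0.70, and injured tubule markers at 3.53.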

How the data were processed

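Whole-kidney RNA from 1 control and 1 CKO library was sequenced with a stranded mRNA kit, per the labels' protocols. Tools listed in the submitters' processing notes, without roles, are FastQC, STAR 2.7.3a, Cufflinks 2.2.1, HTSeq, edgeR and DESeq2, with the mm10 build. The deposited read counts are whole numbers per gene, not normalized. The deposited FPKM values are scaled by length and depth, and the deposited TPM values sum to nearly the same total in both libraries, per the file headers and the values. A further deposited table of normalized signal equals the counts over 1 constant per library.

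Counts were scaled by TMM in edgeR 4.0.16 (R 4.3.3) using every gene that had reads, which gave normalization factors of 0.896 (control) and 1.12 (CKO). Log2 ratios use CPM + 0.5, which understates ratios of genes with few reads. Levels have exact Poisson intervals, ratios exact Clopper-Pearson intervals, and comparisons of 2 genes the exact conditional interval of an odds ratio. Steps ran in Python 3.11.15 with scipy 1.17.1 and were tested on simulated data. Coordinates and promoters are from RefSeq on GRCm38.p6, the assembly that mm10 names, matched by gene ID.

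The members and lists were chosen with earlier results of these data known. All members are named. Of each pathway list, the highest, the lowest and any gene past 2-fold are named, and of each marker list the gene with the most reads. Some genes that this rule selects are left out of the text. Alternatives were DESeq2 1.42.0 size factors, total counts, the deposited units, other pseudocounts and minimum levels, a 1.5-fold limit and the counting interval.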

Additional observations from a re-analysis of the deposited data

How the results depend on the processing

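With 1 library per group, no library could be left out. No paired analysis was possible because each group has 1 library. Against 1 member at least 2-fold higher, there were 3 at a 1.5-fold limit, 2 with TPM, 2 with total counts and 0 with a pseudocount of 2 CPM. With FPKM + 0.5 there was again 1, but it was Hes1 (1.17) and not Jag1 (0.98), whose plain FPKM ratio was 2.16. The members' median log2 ratio of 0.19 was 0.50 with total counts, 0.58 with TPM, 0.47 with FPKM (9 members) and 0.38 with a minimum of 10 CPM (7 members). Wider pathway genes at least 2-fold higher, 5 in number, were 9 at 1.5-fold, 2 with the minimum of 10 CPM and 3 with the pseudocount of 2 CPM. Of all genes, 1552 were at least 2-fold higher and 251 lower. The higher count was 2920 at 1.5-fold, 2613 with TPM, 2391 with total counts, 825 with the pseudocount of 2 CPM and 573 with the minimum of 10 CPM. The lower count was 1037 at 1.5-fold, 167 with the pseudocount of 2 CPM, 139 with TPM, and 102 with FPKM and with total counts alike. The cause of the shift between scalings was not tested. No member and no wider pathway gene was at least 2-fold lower under any of these alternatives, the 1.5-fold limit included. At that limit this rests on the added 0.5 CPM for Hey1, which was 1.51-fold lower without it. Depth limits Hey1 most, with 49 and 46 reads.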

Other observations

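Of the Notch family genes below the minimum level, Hes7, a repressor of the segmentation clock, had 2 control reads and 23 CKO reads, a ratio of 8.13 with a counting interval from 2.01 to 71.2. Dtx1, a Deltex gene induced by Notch in lymphocytes, had 20 and 18 reads, a ratio of 0.64 (0.32 to 1.27). Hey2, a relative of Hey1 in vessels that was just above that minimum, had 36 and 59 reads, a ratio of 1.16 (0.75 to 1.81), next to the 0.66 of Hey1. These genes were chosen after their values were seen.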
